A study of Caenorhabditis elegans with 30 samples.

Results

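The genes described here are the neighbours, on the chromosome, of genes targeted by RNA interference (RNAi) in the nematode Caenorhabditis elegans. They are 10 protein-coding genes of the 46748 genes in the count table, taken by name because they overlap a target or lie within 5 kb of it: C01A2.6, oxa-1, F25H2.4, F25H2.6, F25H2.7, F55H2.5, F55H2.7, ppfr-1, lin-46 and shw-3. They belong to 5 of the 8 targets; no neighbour of the targets fkh-7, ifd-1 and ipmk-1 is among them. They are not every gene nearby: the annotation holds 151 genes within 5 kb of a target, 108 of them near fkh-7, and 14 tested genes at that distance are not among the 10. The names were chosen with earlier results of these data known, so a higher share of calls among them than among those 14 is no result. All 10 were measured well enough to be tested in every comparison.

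The study measured RNA in 30 libraries of whole N2 hermaphrodites, the wild-type strain, aged 5 days. All groups share that strain, sex and age and differ in the label of the RNAi treatment. The titles fall into sets marked ZK and RM. The ZK libraries comprise L4440_ZK, C01A2.5 (target tads-1), M04C9.5 (dyf-5), R186.7 (pnn-1) and ZK795.1 (ipmk-1). The RM libraries comprise L4440_RM, F25H2.5 (ndk-1), F55H2.6 (clu-1), R04E5.10 (ifd-1) and F26D12.1 (fkh-7). Each of the 10 groups has 3 libraries. L4440 is the empty vector of the usual feeding method. Nothing in the labels says whether replicate libraries stem from separate cultures, so the p-values measure the spread between these libraries, which may be technical.

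In RNAi, double-stranded RNA is cut into short interfering RNAs that guide the loss of transcripts with the matching sequence. In C. elegans the response also reaches the nucleus, where it can act on unspliced transcripts. Many C. elegans genes that follow each other on the same strand are transcribed together as operons, and their joint transcript is then divided by trans-splicing. Neighbours read in opposite directions away from each other can share a promoter region. RNAi against a gene is commonly read as acting on that gene alone, which makes the genes beside it a natural comparison.

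Each library held between 31835911 and 44987307 counts. Replicates varied with a biological coefficient of 5.42% in the ZK set and 11.7% in the RM set. Levels are CPM, counts scaled to a common library size with edgeR's default factors. Changes are log2 fold changes against the L4440 group of the same prefix ± standard error, with 3 libraries a group. A change is called at an adjusted p under 0.05 over all genes tested, from edgeR's quasi-likelihood test. Each neighbour was also compared with the mean of the other 3 treatments of its prefix, which uses no L4440 library. Markers of germline, oocyte and eggshell, neurons, body wall muscle and intestine had counts in every group, and at most 2 of 34 sperm markers were at 0. In whole animals, fewer cells of a type and less RNA per cell cannot be told apart.

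Replicate 3 of L4440_RM and replicate 3 of F26D12.1 were each the lowest of their group for oxa-1, at 37.6 and 37.2 CPM, and for ifd-1, at 3.28 and 3.53 CPM. Without these libraries F25H2.6 had -1.12 and F25H2.7 -0.975 in F25H2.5, and F55H2.5 had 0.43 and F55H2.7 -0.343 in F55H2.6, and all remained called.

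The targets themselves were checked first. The log2 fold change was -4.46 ± 0.14 for ndk-1 in F25H2.5 (adjusted p = 3.2e-11), -2.58 ± 0.10 for pnn-1 in R186.7 (adjusted p = 3.71e-11), -1.96 ± 0.07 for tads-1 in C01A2.5 (adjusted p = 4.33e-18) and -1.08 ± 0.10 for clu-1 in F55H2.6 (adjusted p = 6e-06). ipmk-1 had -0.62 ± 0.12 in ZK795.1 (adjusted p = 0.00115), and fkh-7 had 0.23 ± 0.15 in F26D12.1 (adjusted p = 1). The gene dyf-5 went the other way, rising by 4.75 ± 0.21 where M04C9.5 is the label (adjusted p = 8.03e-17), and so did ifd-1, by 2.01 ± 0.25 where R04E5.10 is the label (adjusted p = 0.000999). Those libraries are named by their label.

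Across the 10 neighbours, each in the treatment aimed at the gene beside it, 1 rose, 4 fell and 5 were not called. The 4 that fell were oxa-1 beside tads-1, F25H2.6 and F25H2.7 beside ndk-1, and F55H2.7 beside clu-1. The gene that rose was F55H2.5, also beside clu-1. The backgrounds differ widely between the treatments. In C01A2.5 88.1% of all tested genes were called (51.7% higher, 36.4% lower), in F25H2.5 8.65% (5.26% higher, 3.39% lower) and in F55H2.6 18.9% (10.4% higher, 8.54% lower). In the libraries labelled M04C9.5 the share was 19.8%, and in R186.7 2.55%. Against the other 3 treatments 7 of the 10 neighbours were called, where 90.1% of all genes were called in C01A2.5, 15.1% in F25H2.5, 29.4% in F55H2.6, 63.7% in the libraries labelled M04C9.5 and 57.6% in R186.7. In that contrast 2 of the 14 other tested genes within 5 kb of a target were called higher and 7 lower.

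**Figure D1:**
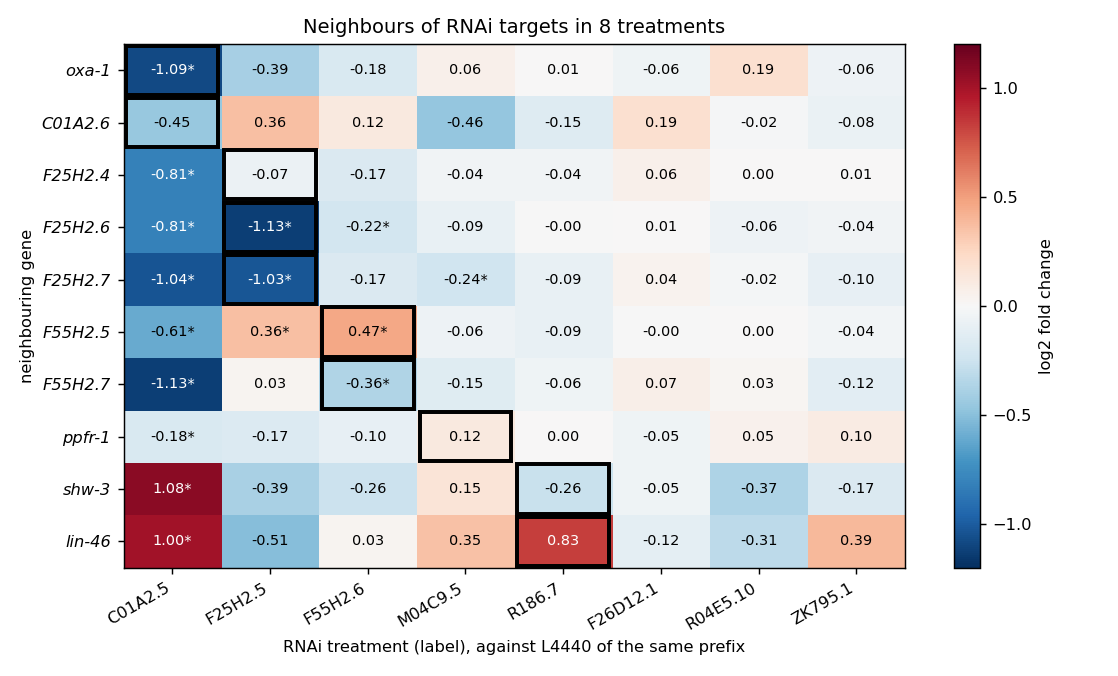
Log2 fold change of each neighbour (rows) in each RNAi treatment (columns) against L4440 of the same prefix, with a star where the adjusted p is under 0.05 and a black frame around the treatment aimed at the adjacent target. F25H2.6 and F25H2.7 have their lowest RM values in the framed F25H2.5 column, and 9 of the 10 genes carry a star in C01A2.5.

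The ndk-1 locus on chromosome I (WBcel235) holds 3 of the neighbours. ndk-1, which encodes a nucleoside diphosphate kinase, lies on the minus strand at 10553116 to 10553913. F25H2.6 lies on the plus strand at 10554366 to 10557838, so that both genes are read away from a gap of 452 bp between their starts. F25H2.7 follows F25H2.6 on the plus strand at 10558323 to 10560006, after a gap of 484 bp, and is 4409 bp from ndk-1. F25H2.4 lies on the plus strand at 10551972 to 10553047 on the other side, with its end 68 bp from the end of ndk-1. None of the 3 overlaps ndk-1.

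F25H2.6 had 84.1, 85.5 and 80.6 CPM in the F25H2.5 libraries and 186, 176 and 184 CPM in L4440_RM. The 3 treated libraries were all lower than every control library. The gene fell by 1.13 ± 0.06 (adjusted p = 3.78e-08), to 45.8% of the control, and by p it had rank 2 of all genes in that comparison, after ndk-1. In the other RM treatments it stood at 175 ± 7.75 CPM (SD, n = 3) in R04E5.10, 183 ± 12.2 in F26D12.1 and 156 ± 10.2 in F55H2.6. Against the mean of those 3 treatments F25H2.5 was lower by -1.03 ± 0.06 (adjusted p = 1.39e-08), with a 95% interval of -1.16 to -0.91.

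F25H2.7 had 18.3, 17.2 and 16.9 CPM in F25H2.5 and 35.3, 33.4 and 38.4 CPM in L4440_RM, again with no overlap. It fell by 1.03 ± 0.09 (adjusted p = 6.82e-06), to 49% of the control. Against the other 3 RM treatments its difference was -0.98 ± 0.07 (adjusted p = 6.56e-07; 95% interval -1.14 to -0.82). Of all tested genes, 379 had lower values than F25H2.6 and 508 had lower values than F25H2.7.

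F25H2.4, on the other side of ndk-1 and nearer to it, was not called. It had 120, 107 and 127 CPM in F25H2.5 and 118.6, 116 and 137 CPM in L4440_RM, and the groups overlapped. Its value was -0.07 ± 0.08 (adjusted p = 0.621), with a 95% interval of -0.26 to 0.11. Against the other RM treatments it was -0.04 ± 0.07 (adjusted p = 0.78; 95% interval -0.18 to 0.12). These intervals do not reach the changes of F25H2.6 and F25H2.7, though the difference between the genes was not tested.

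**Figure D2:**
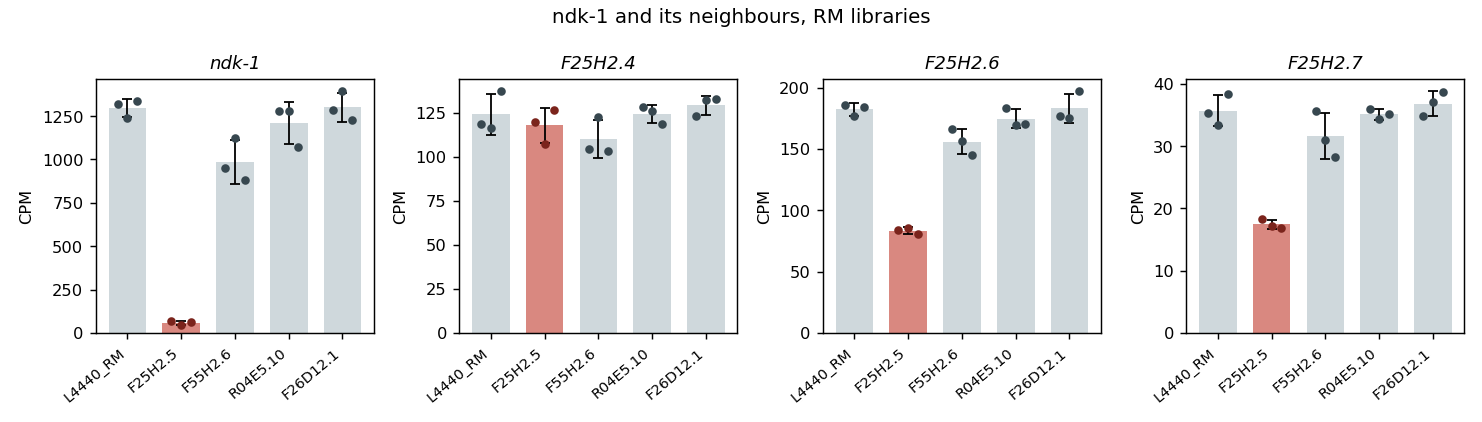
Scaled CPM of ndk-1 and its 3 neighbours in the RM libraries; bars are means of 3 libraries, error bars are SD and points are libraries, with F25H2.5 in red. F25H2.6 and F25H2.7 sit at 45.8% and 49% of L4440_RM in F25H2.5 while F25H2.4 overlaps its controls.

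Germline, oocyte and sperm markers were read beside these falls. In F25H2.5 the 10 germline markers summed to 2610 to 2770 CPM against 2690 to 2820 in L4440_RM, with 1 fallen. The 15 oocyte and eggshell markers summed to 16000 to 17200 CPM against 15100 to 16400, with 1 risen. The sperm markers summed to 45.5 to 47.9 CPM against 59.7 to 83.2, with 3 of 32 tested fallen. Their part in the result was not tested.

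The clu-1 locus on chromosome III holds F55H2.7 and F55H2.5. clu-1, the relative of fly clueless, which acts in the placing and function of mitochondria in Drosophila, lies on the minus strand at 9516631 to 9521460. F55H2.7 is on the same strand at 9513344 to 9516248, 382 bp beyond the 3' end of clu-1. F55H2.5 is on the opposite strand at 9511470 to 9513375, 3255 bp from clu-1, and the exons of F55H2.5 and F55H2.7 share 32 bp. Strand is not kept by the library kit, and reads on the shared bases cannot be told apart.

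F55H2.7 had 91.8, 80.9 and 72.3 CPM in F55H2.6 and 107, 99.9 and 107 CPM in L4440_RM. All treated libraries were lower, and the gene fell by 0.36 ± 0.08 (adjusted p = 0.00509), to 77.9% of the control. Its difference from the other 3 RM treatments was -0.40 ± 0.06 (adjusted p = 0.00033). With only replicates 1 and 2 of the RM groups the value was -0.28 (adjusted p = 0.115).

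F55H2.5 moved the opposite way, with 66, 60.5 and 54.8 CPM in F55H2.6 and 46.6, 43 and 41.7 CPM in L4440_RM. It rose by 0.46 ± 0.08 (adjusted p = 0.00107), to 138% of the control. It was also higher in F25H2.5, at 54.8, 61.3 and 52.4 CPM, by 0.36 ± 0.08 (adjusted p = 0.0113). The difference of F55H2.6 from the other 3 treatments, F25H2.5 among them, was 0.345 ± 0.063 (adjusted p = 0.000969), and single libraries of F55H2.6 and F25H2.5 overlapped. clu-1 was itself lower in F25H2.5, by -0.67 ± 0.10 (adjusted p = 0.00134).

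**Figure D3:**
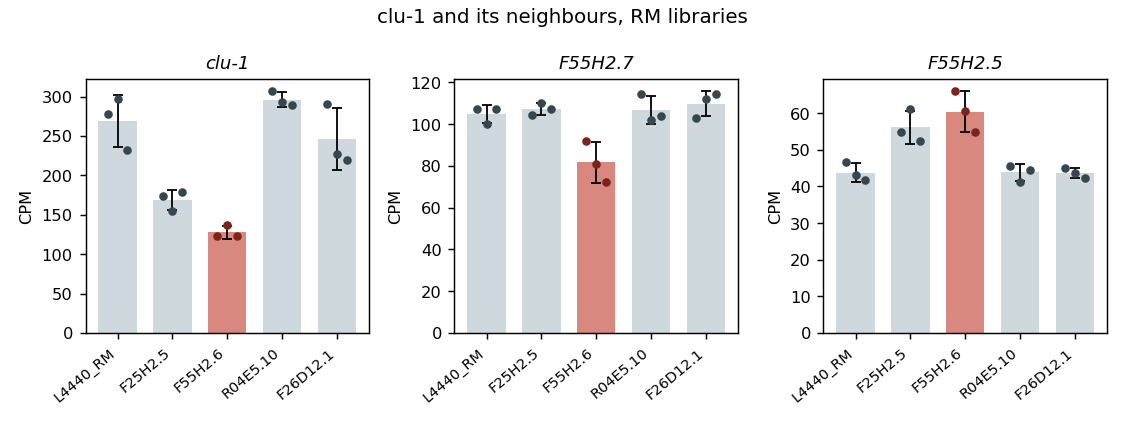
Scaled CPM of clu-1, F55H2.7 and F55H2.5 in the RM libraries; bars are means of 3 libraries, error bars are SD and points are libraries, with F55H2.6 in red. F55H2.7 is lowest in F55H2.6, and F55H2.5 is high in both F55H2.6 and F25H2.5.

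Germline markers moved in F55H2.6 as well. The 15 oocyte and eggshell markers summed to 11700 to 13800 CPM against 15100 to 16400 in L4440_RM, and 11 fell. The 10 germline markers summed to 2040 to 2430 CPM against 2690 to 2820, and 6 fell. Their part in the changes of F55H2.7 and F55H2.5 was not tested.

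The tads-1 locus on chromosome I holds C01A2.6 and oxa-1 in the same orientation as tads-1, which spans 13384752 to 13387084 on the plus strand. C01A2.6 spans 13381392 to 13384371 and ends 380 bp before tads-1. oxa-1 spans 13387819 to 13391205 and starts 734 bp after it. oxa-1 is related to yeast OXA1, which inserts proteins into the mitochondrial inner membrane.

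oxa-1 had 21.3, 22.9 and 22.3 CPM in C01A2.5 and 47.4, 47.6 and 46.4 CPM in L4440_ZK. The treated libraries were all lower, and the gene fell by 1.09 ± 0.06 (adjusted p = 1.58e-17), to 47.1% of the control. In the other ZK treatments it stayed between 43.7 and 50.7 CPM, and its difference from them was -1.09 ± 0.05 (adjusted p = 2.09e-19). In C01A2.5, however, 36.4% of all tested genes fell and 1192 genes had a lower value than oxa-1. The median gene moved by 0.423, and relative to it oxa-1 was at -1.51. Relative log expression factors moved that median by -0.228 and library totals by 0.239, and oxa-1 ranged from -1.31 to -0.85 over the settings tried.

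C01A2.6 was near the limit of detection, with 27, 23 and 39 counts in L4440_ZK and 23, 29 and 17 counts in C01A2.5. Its value was -0.45 ± 0.28 (adjusted p = 0.125), with a 95% interval of -1.08 to 0.17. All 3 treated libraries were lower in CPM. With relative log expression factors it was -0.68 (adjusted p = 0.0232).

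Most listed genes of mitochondrial import, ribosome and oxidative phosphorylation were low in the same libraries. Of 33 listed genes of mitochondrial import, insertion and quality control, 31 were tested and all 31 fell in C01A2.5, where 36.4% of all genes fell, with a median of -0.76 against 0.423 over all genes. Of 50 nuclear genes of the mitochondrial ribosome and oxidative phosphorylation, 49 fell and 1 rose, with a median of -0.54. Examples were phb-2, a prohibitin, at -1.14 ± 0.05 (adjusted p = 1.4e-19), and mrpl-11, a mitochondrial ribosomal protein gene, at -1.12 ± 0.05 (adjusted p = 4.78e-19). In F55H2.6, where 8.54% of all genes fell, 13 of the 31 import genes and 34 of the 50 fell and none rose. There oxa-1 itself had 40.4 ± 4.17 CPM against 45.9 ± 7.54 in L4440_RM (SD, n = 3). In F25H2.5, where 3.39% of all genes fell, 8 of the 31 import genes fell and 0 rose. Of the 50, 5 fell and 1 rose there. oxa-1 had 34.9 ± 1.16 CPM in F25H2.5 and was not called. Its F25H2.5 libraries, at 33.74 to 36.05 CPM, were nevertheless all lower than those of L4440_RM, at 37.56 to 52.27 CPM.

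Cell type markers were read in C01A2.5, where 51.7% of all genes rose, 36.4% fell and the median gene moved by 0.423. The median marker was at 9.16 for sperm, -1.50 for oocyte and eggshell, -0.98 for germline and 1.05 for neurons. It was at 0.63 for intestine and 0.48 for body wall muscle, the latter close to the median of all genes. All 34 sperm markers rose, with sums of 4030 to 4510 CPM against 19.3 to 26.8 in L4440_ZK. Of the 15 oocyte and eggshell markers 13 fell and 2 rose, and the sums were 9470 to 10100 CPM against 16400 to 18200. All 10 germline markers fell, with sums of 1660 to 1800 CPM against 3120 to 3360. Of the 8 neuron markers 6 rose and 1 fell, with sums of 379 to 413 CPM against 291 to 318. Of the 8 body wall muscle markers 7 rose, with sums of 949 to 1060 CPM against 675 to 738. Of the 8 intestine markers 7 rose, with sums of 49900 to 72100 CPM against 38100 to 41500. The part of these shifts in the values of the neighbours was not tested.

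**Figure D4:**
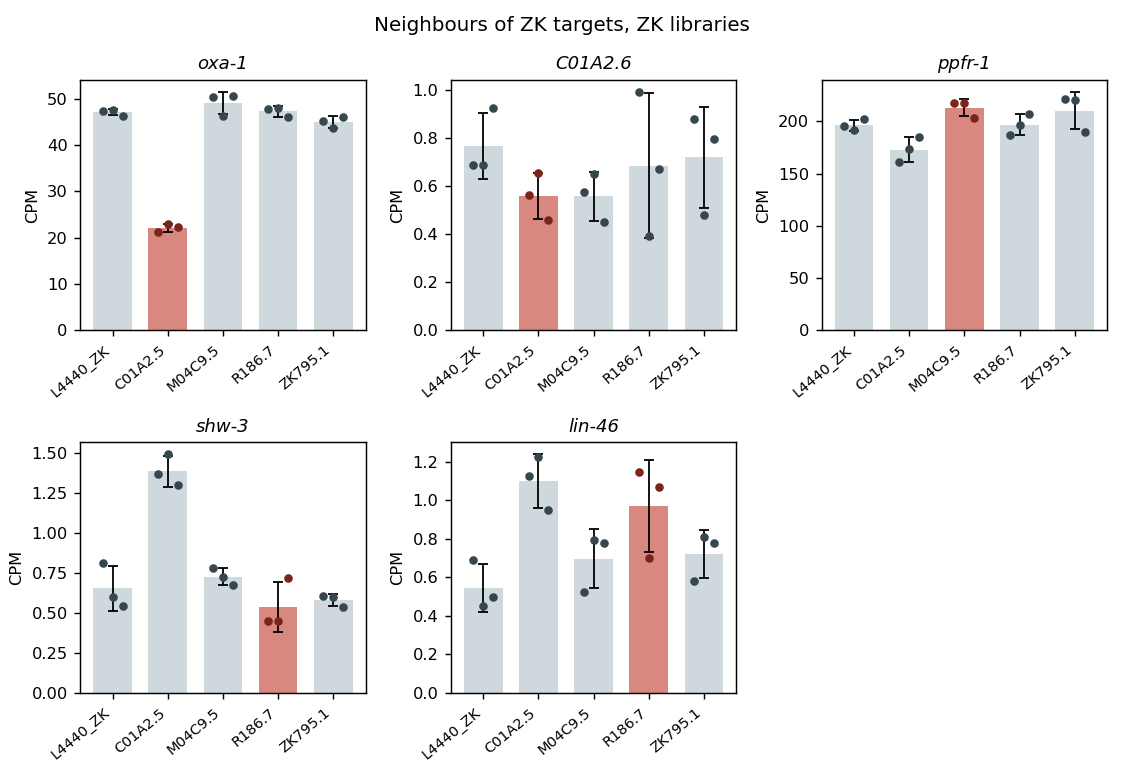
Scaled CPM of the neighbours of the ZK targets in the ZK libraries; bars are means of 3 libraries, error bars are SD and points are libraries, with the treatment aimed at the adjacent target in red. oxa-1 falls to 47.1% of L4440_ZK in C01A2.5, and C01A2.6, shw-3 and lin-46 lie near or below 1 CPM in most groups.

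The dyf-5 locus holds ppfr-1, a regulatory subunit of protein phosphatase 4 that acts with the katanin MEI-1 at the meiotic spindle. ppfr-1 lies on the minus strand of chromosome I at 9364099 to 9389982, and its exons share 140 bp with dyf-5, on the plus strand at 9359067 to 9364238. ppfr-1 had 218, 218 and 204 CPM in the libraries labelled M04C9.5 and 196, 191 and 202 CPM in L4440_ZK. The value was 0.12 ± 0.06 (adjusted p = 0.163), although no libraries overlapped. Strand is not kept, so reads on the shared bases cannot be told apart between the genes. Over its 1878 bp of exon dyf-5 was at 7.36 ± 1.31 CPM (SD, n = 3) there and 0.268 ± 0.0893 in L4440_ZK. The means of ppfr-1 were 212.9 and 196.3 CPM. The part of shared reads in its value was not tested. Against the other 3 treatments ppfr-1 had 0.14 ± 0.05 (adjusted p = 0.00835), but 0.085 ± 0.05 (adjusted p = 0.19) without the C01A2.5 libraries, in which it was lowest.

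The pnn-1 locus on chromosome V holds lin-46 and shw-3. pnn-1, related to the splicing-associated protein pinin, spans 12971110 to 12973281 on the plus strand. lin-46, a heterochronic gene that acts downstream of lin-28 in larval timing, spans 12968855 to 12970730 on the same strand and ends 379 bp before pnn-1. shw-3, a Shaw-type voltage-gated potassium channel gene, lies on the minus strand at 12973261 to 12987161 and shares 21 bp with the end of pnn-1.

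Both genes had few reads. lin-46 had 46, 25 and 46 counts in R186.7 and 27, 15 and 21 in L4440_ZK, and its value was 0.83 ± 0.24 (adjusted p = 0.0613), with a 95% interval of 0.29 to 1.37. It was called in some settings and not in others, and with all 6 L4440 libraries as control it was 0.319 (adjusted p = 0.448). shw-3 had 18, 16 and 31 counts in R186.7 and 32, 20 and 23 in L4440_ZK, with -0.26 ± 0.24 (adjusted p = 0.658). Against the other ZK treatments shw-3 had -0.62 ± 0.19 (adjusted p = 0.00737), and without the C01A2.5 libraries -0.25 (adjusted p = 0.506). Neither gene passed the threshold against L4440_ZK, where pnn-1 stood at 16.8% of the control.

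The neighbours were also followed through all treatments. In C01A2.5 9 of the 10 were called, 2 higher and 7 lower, where 88.1% of all genes were called, 51.7% higher and 36.4% lower. The share of neighbours called is close to that background. shw-3 had 1.085 ± 0.20 (adjusted p = 1.46e-05), and all 24 listed potassium channel genes rose, with a median of 1.05, where the 8 neuron markers had a median of 1.05 and 6 of them rose. The part of that shift in these values was not tested. lin-46 had 1.00 ± 0.24 (adjusted p = 0.000273) against L4440_ZK, which was its lowest group of the 10. Of 14 tested heterochronic genes 7 rose and 5 fell, near the shares over all genes. F25H2.7 was at -1.04 ± 0.07 there and at -1.03 ± 0.09 in F25H2.5, and F55H2.7 was at -1.13 ± 0.06 there and at -0.36 ± 0.08 in F55H2.6. F25H2.4 and F25H2.6 each had -0.81 ± 0.05 in C01A2.5, and F55H2.5 had -0.61 ± 0.06. The 12 genes of protein phosphatase 4 and spindle severing all fell, with a median of -0.81, and ppfr-1 had -0.18 ± 0.06 (adjusted p = 0.0046).

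Outside C01A2.5 fewer neighbours were called. In F25H2.5 3 of 10 were called, against 8.65% of all genes, and in F55H2.6 3 of 10, against 18.9%. At an unadjusted p under 0.05 (edgeR) there were 6 in F25H2.5, 3 in F55H2.6 and 2 where M04C9.5 is the label. The share of all genes at that unadjusted threshold was not computed for any treatment. The unadjusted counts therefore have no background and cannot be set against the shares called. The median neighbour had -0.28 in F25H2.5, against -0.003 over all genes, and -0.174 in F55H2.6, against 0.039. The neighbours include the genes at each treated locus and were chosen with earlier results known. The distance of these counts and medians from the background is therefore no result. The call in F55H2.6 that lies outside the clu-1 locus was F25H2.6, at -0.22 ± 0.06 (adjusted p = 0.0211). Where M04C9.5 is the label 1 of 10 was called, against 19.8% of all genes. It was F25H2.7, at -0.24 ± 0.06 (adjusted p = 0.00618). In R186.7 and ZK795.1 0 were called by edgeR and 0 by DESeq2, where edgeR called 2.55% and 1.99% of all genes. At an unadjusted p under 0.05 (edgeR) there was 1 in each, with no background at that threshold. In F26D12.1 and R04E5.10 0 were called by either tool, where edgeR called 0.00633% and 2.28% of all genes. There 0 had an unadjusted p under 0.05 (edgeR). These treatments share their L4440 libraries within a prefix.

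The L4440 groups differed in 1 neighbour, where 43.8% of all genes were called. lin-46 was higher in L4440_RM than in L4440_ZK by 0.89 ± 0.24 (adjusted p = 0.00345), at 1.06 ± 0.325 against 0.563 ± 0.132 CPM (SD, n = 3). The labels do not say what the title prefix stands for.

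Over the 10 groups, with all 30 libraries scaled together, F25H2.6 was lowest in F25H2.5 at 81.1 ± 2.29 CPM (SD, n = 3), then in C01A2.5 at 103.3 ± 5.02 and F55H2.6 at 152.4 ± 9.44, and the remaining 7 groups lay between 166 and 180 CPM. F25H2.7 was lowest in C01A2.5 at 15.7 ± 1.21 CPM and in F25H2.5 at 17 ± 0.73, which did not differ beyond their spread, and stood at 27.3 to 35.7 CPM elsewhere. oxa-1 was lowest in C01A2.5 at 23 ± 0.856 CPM, then in F25H2.5 at 34 ± 1.21, and its other 8 groups ran from 39.5 to 50.9 CPM. F55H2.7 was lowest in C01A2.5 at 48.4 ± 3.72 CPM and next in F55H2.6 at 79.8 ± 9.37, with the other 8 groups at 95.4 to 106 CPM. F55H2.5 was lowest in C01A2.5 at 31.1 ± 0.882 CPM and highest in F55H2.6 at 59 ± 5.28 and F25H2.5 at 54.6 ± 4.27, which overlapped within their spread. ppfr-1 was lowest in F25H2.5 at 179 ± 9.6 CPM and C01A2.5 at 179 ± 12.4, and highest at 220 ± 8.32 in the libraries labelled M04C9.5.

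Levels of the 10 genes were compared per kb of exon in L4440_ZK. F25H2.4 was highest at 165 CPM per kb, followed by F25H2.6 at 82 and F55H2.7 at 76.7. ppfr-1, oxa-1 and F55H2.5 stood at 37.6, 36 and 33.6 CPM per kb and F25H2.7 at 23.5. C01A2.6, lin-46 and shw-3 were lowest, at 0.942, 0.412 and 0.384 CPM per kb. The target ndk-1 was at 2059 CPM per kb.

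The wider surroundings were described in the same way. Of 14 other tested genes within 5 kb of a target, 1 was called in its treatment, prp-40, a splicing factor gene 614 bp upstream of clu-1, at -0.18 ± 0.05 (adjusted p = 0.0219). Between 5 and 50 kb 150 genes were tested, of which 12 rose and 19 fell. Without C01A2.5 these were 133 genes, 7 risen and 9 fallen. These pooled counts have no single background, as the share of all genes called ran from 0.00633% in F26D12.1 to 88.1% in C01A2.5. In F25H2.5 2 rose and 1 fell of 29 tested at that distance (10.3% called), where 8.65% of all genes were called. In F55H2.6 0 rose and 6 fell of 26 (23.1% called), where 18.9% of all genes were called. Within 5 kb 2 of 3 fell in F25H2.5, and of 5 in F55H2.6 1 rose and 2 fell. The near calls include neighbours chosen with earlier results known, so a higher share near the target is no result.

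**Figure D5:**
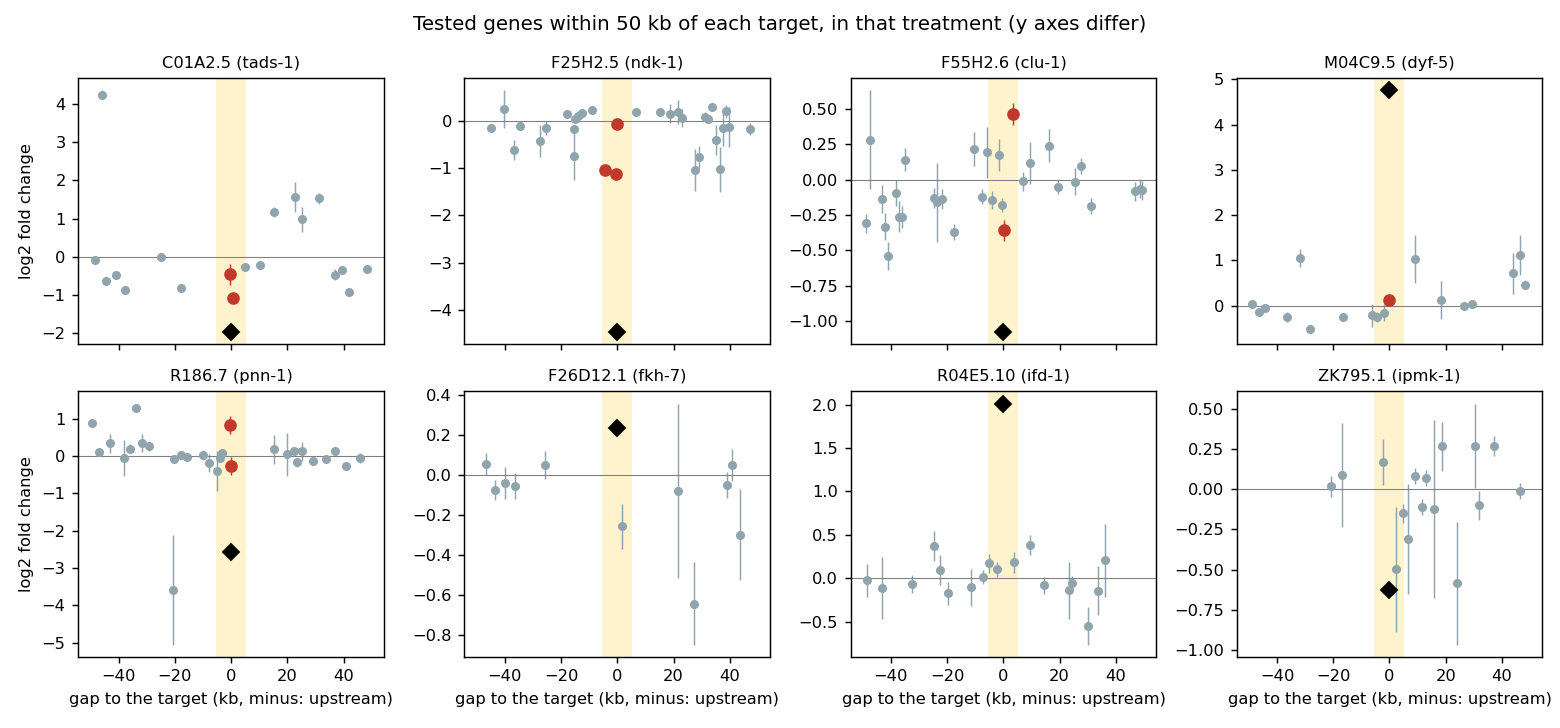
Log2 fold change ± standard error of every tested gene within 50 kb of each target (x axis, gap in kb, negative on the upstream side) in the treatment aimed at that target; red points are the 10 neighbours, grey points other genes, the black diamond the target and the shaded band 5 kb. The y axes differ between panels, and F25H2.6 and F25H2.7 are the red points near -1 in the F25H2.5 panel.

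For the 9 neighbours with at least 1 call in the 8 comparisons, which leaves out C01A2.6, the genes with the most similar pattern were ranked by the root mean square difference of their 8 log2 fold changes, among 15513 genes. For F25H2.6 a pseudogene came closest, at 0.096, and F25H2.7 came next, at 0.111, and for F25H2.7 the closest gene was F25H2.6. In all, 8 and 12 genes came within 0.2 of these patterns. For oxa-1 the closest was atad-3, which encodes a mitochondrial ATPase, at 0.058, and 1113 genes came within 0.2. For F55H2.7 it was him-5, at 0.047, with 2534 genes within 0.2, and for F55H2.5 txbp-3, at 0.09, with 447. The closest to ppfr-1 was dcr-1, at 0.021, to lin-46 chil-3, at 0.143, to shw-3 C01C4.3, at 0.123, and to F25H2.4 tmem-120, at 0.025.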

How the data were processed

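Reads per gene in 30 libraries were used as counts deposited by the authors, who, per the submitters' processing notes, used bcl2fastq 1.8.4, STAR 2.4.1d on WBcel235 and featureCounts 1.4.6-p4; the annotation release they counted with is not given in the sources used here. The TruSeq RNA kit (version 2, per the labels' protocols) keeps no strand. A table of RPKM values deposited by the authors was not used, because 8.9% of its values (4480 genes above 20 RPKM) matched the total of their own library within 1%. All columns were matched to a library (0 unmatched).

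The members and gene lists were chosen with earlier results of these data known. Genes were filtered with filterByExpr (16495 genes in the ZK fit, 15795 in the RM fit, 16867 with all 30 libraries), normalized by TMM factors and fitted with edgeR 4.0.16 (robust quasi-likelihood, R 4.3.3), 15 libraries of a prefix together as 5 group means with 10 residual degrees of freedom. Adjustment (Benjamini-Hochberg) ran over all genes tested, with a threshold of 0.05. A standard error is |log2 fold change| over the root of F. L4440_RM was compared with L4440_ZK in a fit of all 30 libraries.

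Positions come from an Ensembl gene annotation of WBcel235 (release 115). All 10 members are named; other genes within 5 kb were named if called, the closest genes by the 8 fold changes, and up to 3 list genes by p; the text names part of these. Alternatives were relative log expression factors, library totals, no filter, DESeq2 1.42.0, other sets of libraries, leaving out each library and a replicate block. Titles carry 1 running number per library, and replicate numbers are the order within a group. The labels do not say whether same-numbered libraries were handled together, and the main fit did not pair them. Sequence shared between targets and neighbours was not analysed here.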

Additional observations from a re-analysis of the deposited data

Results flagged for a closer look

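For 7 of the 10 neighbours the change in the treatment aimed at the adjacent target differed from the mean of the other 3 treatments of the prefix (edgeR, adjusted p under 0.05). These differences were -1.034 for F25H2.6 and -0.979 for F25H2.7 in F25H2.5, 0.345 for F55H2.5 and -0.402 for F55H2.7 in F55H2.6, -1.087 for oxa-1 in C01A2.5, 0.144 for ppfr-1 in the libraries labelled M04C9.5 and -0.617 for shw-3 in R186.7. The background of this contrast was 15.1% of all genes in F25H2.5, 29.4% in F55H2.6, 90.1% in C01A2.5, 63.7% in the libraries labelled M04C9.5 and 57.6% in R186.7. Of the 14 other tested genes within 5 kb of a target, 2 were called higher and 7 lower in the same contrast. Of 150 tested genes between 5 and 50 kb, 26 were called higher and 48 lower. Such calls are therefore not particular to the 10 neighbours. The values of ppfr-1 and shw-3 fell short of the threshold without the C01A2.5 libraries. In all, shw-3 lost its call in 2 of 6 settings.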

How the results depend on the processing

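F25H2.6, F25H2.7, F55H2.5 and oxa-1 kept their direction and their call in the adjacent target's treatment under every setting tried and every library left out: -1.15 to -1.09, -1.07 to -0.95, 0.40 to 0.56 and -1.31 to -0.85. No called result changed sign. F55H2.7 had -0.28 (adjusted p = 0.115) in the fit of RM replicates 1 and 2, and -0.45 to -0.28 with each library left out, with a highest adjusted p of 0.0498. C01A2.6 was called with relative log expression factors, at -0.68. lin-46 in R186.7 was called with library totals (0.88), with no filter (0.84) and without L4440_ZK replicate 1 or R186.7 replicate 2, in a range of 0.70 to 1.03 over the leave-one-out fits; with all 6 L4440 libraries as control it was 0.319 (adjusted p = 0.448). ppfr-1 was called in the fit of the 6 libraries compared (0.12) and with library totals (0.20); against the other treatments it was 0.085 without C01A2.5. shw-3 against the other treatments lost its call in 2 of 6 settings. It was -0.56 with DESeq2, -0.25 without C01A2.5 and -0.89 to -0.49 over the leave-one-out fits, falling short without R186.7 replicate 1 or 2. Members called numbered 5 with all 6 L4440 libraries as control in F25H2.5 and in F55H2.6, and 1 in F55H2.6 with replicates 1 and 2; 3 in M04C9.5 with DESeq2, relative log expression factors or the 6 libraries, and 0 to 3 with a library left out (0 without M04C9.5 replicate 2, 2 without L4440_ZK replicate 3, 3 without C01A2.5 replicate 1 or ZK795.1 replicate 2); 1 in R186.7 with library totals or no filter, and 0 to 1 with a library left out; 0 to 1 in ZK795.1, 1 without its replicate 3; and 2 (DESeq2, relative log expression factors) or 3 (library totals) between the L4440 groups, 1 to 2 with a library left out. The cause of these differences was not tested. With a replicate block F25H2.6 was -1.127 and oxa-1 -1.087, and no call in the adjacent target's treatment changed. To look for pairing, the mean of each group was subtracted from the log CPM of its libraries, gene by gene. The remainders of same-numbered libraries of different groups had correlations of -0.188 to 0.099 (mean -0.013) in ZK and -0.193 to 0.552 (mean 0.086) in RM. Those of differently numbered libraries of different groups had mean correlations of 0.006 in ZK and -0.042 in RM. The labels give no pairing, not every pair exceeded 0.1, and the main fit did not pair libraries. These values cannot show whether some same-numbered libraries were handled together. Library totals moved the median of all genes by 0.135 between the L4440 groups. C01A2.6, lin-46 and shw-3 rest on at most 66 counts a library, which limits what can be seen.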
